A study of Mus musculus with 8 samples.

Results

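Nrg1, Hbegf and the receptor genes Erbb2, Erbb3, Erbb4 and Egfr were followed through the early postnatal mouse ventricle. They were taken by gene symbol from the deposited table of 21970 genes, in which the 6 symbols matched 7 entries, since Nrg1 is listed under 2 identifiers. RNA was measured by poly(A) sequencing in whole ventricles, the lower chambers of the heart, of C57BL/6J mice, an inbred laboratory strain. The 4 groups are postnatal days 3, 6, 12 and 24 (called P3, P6, P12 and P24) of 2 libraries each, and the labels name no treatment, transgene or mutation for any of them. The labels do not say whether the libraries of a stage came from separate animals, so p-values measure the spread between libraries.

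Neuregulin 1 is a growth factor that endocardial and endothelial cells present to neighbouring cardiomyocytes. It binds ErbB3 or ErbB4, and the bound receptor pairs with ErbB2, which has no known ligand of its own but an active kinase; ErbB3 binds ligand but has little kinase activity. EGFR, the receptor for EGF, and HB-EGF, a ligand of both EGFR and ErbB4 that is shed from the cell surface, belong to the same network. In mice, loss of neuregulin 1, ErbB2 or ErbB4 prevents the embryonic ventricle from forming its muscular ridges, and the loss of ErbB2 after birth has been studied as a limit on cardiomyocyte division.

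Libraries held 23375967 to 28745112 reads in the table's genes. Values are the authors' normalized counts unless FPKM is named, and 14055 genes passed the filter on low values, all 6 members among them. Summed over 10 cardiomyocyte markers they lay between 1473215 and 2266912, with no marker at 0 in any library. The P6 libraries lay farthest apart, with a median absolute log2 difference of 0.390 over the genes tested, against 0.118 to 0.154 at the other stages. In Y-linked genes, P6 replicate 1, P12 replicate 1 and P24 replicate 2 held 5260 to 7182 reads and the other 5 libraries at most 4, so that contrasts with P3 also differ in Y-linked reads. The pairs of P6, P12 and P24 were therefore not each made from one and the same animal or pool. For P3, where both libraries held at most 4 such reads, the spread may be technical, which was not tested. In P3 replicates 1 and 2, summed atrial markers stood at 12826 and 5837 and summed fibroblast markers at 192626 and 116391. Summed endothelial markers stood at 37066 and 39283 and cardiomyocyte markers at 1585637 and 1759852.

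Erbb2 and Erbb4 fell from P3 to P24, and Hbegf rose. Nrg1 was lowest at P12 and rose from P12 to P24, with no detectable difference between P3 and P24. The falls of Erbb2 and Erbb4 were called in every alternative fit, while the rises of Hbegf and Nrg1 were lost in several. Erbb3 and Egfr passed no contrast by limma with stage as the only term and all 8 libraries in the fit. The proportions among the receptor messages changed with the stage. The ratios of Erbb3 and of Egfr to Erbb2 increased. That of Erbb4 to Erbb2 lay between 0.246 and 0.336 in all 8 libraries. Whether each of these ratios passed a permutation test over the stages depended on which library was left out.

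**Figure D1:**
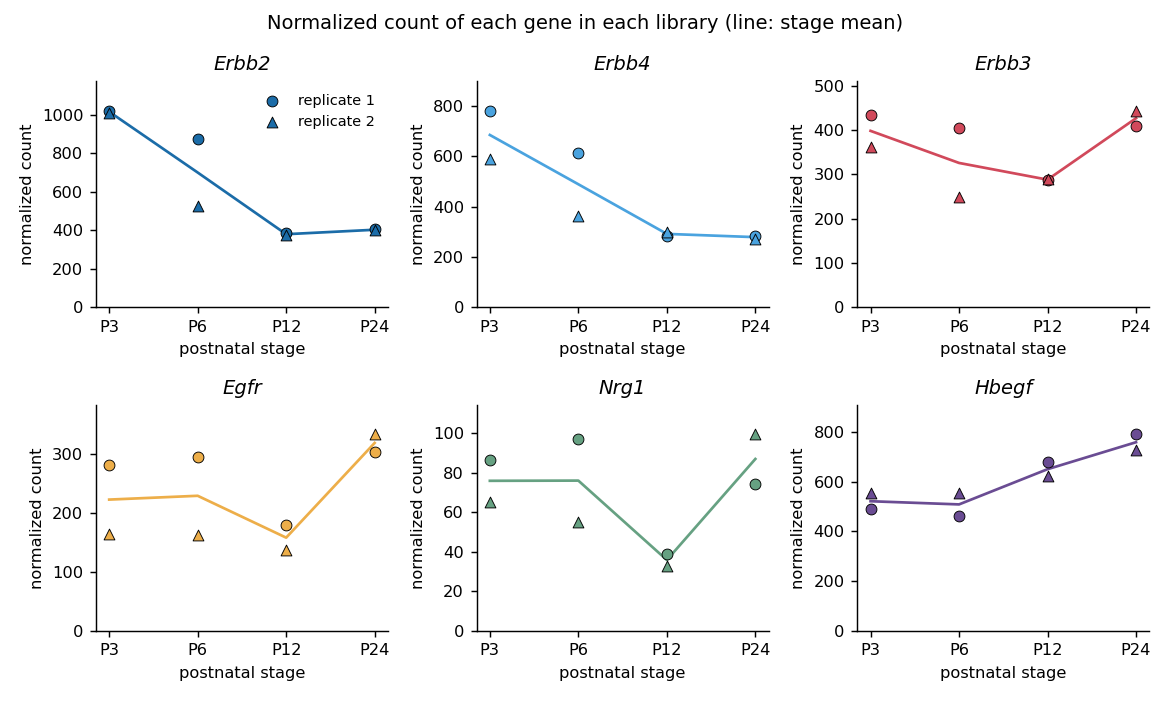
Normalized count of each gene (linear axis from 0) in each library by stage, with a point for each replicate and a line through the stage means. Erbb2 and Erbb4 end low, Nrg1, Erbb3 and Egfr have their lowest mean at P12, and Hbegf ends high.

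Erbb2 (ENSMUSG00000062312), the co-receptor, stood at 1021 and 1009 in the P3 pair of libraries, 875 and 523 in the P6 pair, 382 and 375 in the P12 pair and 405 and 398 in the P24 pair. Both P3 libraries lay above all others, and those of P12 and P24 lay together at the bottom. The mean was 1015 ± 8.83 (SD, n = 2) at P3 and 402 ± 4.70 (SD, n = 2) at P24, 2.52-fold lower on the log2(value + 1) scale used for all fold changes. The log2 change was -1.33 with an SE of 0.22, and limma's moderated test gave a Benjamini-Hochberg (BH) adjusted p of 0.00158 over all genes. For P3 to P12, a contrast added after the values were seen, the log2 change was -1.42 with an SE of 0.22 (BH-adjusted p = 0.00345 by limma). For P12 to P24 it was 0.09 with an SE of 0.22 (BH-adjusted p = 0.811 by limma). In whole tissue, fewer cells of a type and less RNA per cell cannot be told apart.

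Erbb4 (ENSMUSG00000062209), the main neuregulin receptor of cardiomyocytes, stood at 782 and 587 in the P3 libraries, 613 and 364 in the P6 libraries, 283 and 299 in the P12 libraries and 285 and 272 in the P24 libraries. P3 and P24 did not overlap, and the higher P6 library lay within the P3 range. The mean was 684 ± 137 (SD, n = 2) at P3 and 278 ± 9.0 (SD, n = 2) at P24, 2.43-fold lower, with a log2 change of -1.28, an SE of 0.25 and a BH-adjusted p of 0.00361 by limma. In the added contrast from P3 to P12 the change was -1.22 with an SE of 0.25 (BH-adjusted p = 0.010 by limma). That call was lost without P3 replicate 1 (-1.01, adjusted p = 0.0966 by limma) and without P12 replicate 1 or 2 (-1.18 and -1.25, adjusted p = 0.0831 and 0.0658 by limma). From P3 to P24 the calls of Erbb2 and Erbb4 held in each of 19 alternative fits, of which 8 left out 1 library. The change lay between -1.68 and -1.27 for Erbb2 and between -1.63 and -1.08 for Erbb4. Reads are summed per gene, so splice forms of Erbb4 and of Nrg1 are not separated.

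The upstream sequences of Erbb2 and Erbb4 are shown because both genes fell. Promoter windows (RefSeq, build GRCm38.p6, which is not the build of the counts) were at hand for 3 of the 6 genes, these and Egfr. Each sequence is written 5′ to 3′ on the gene's own strand, ends before the first transcribed base of both RefSeq and GENCODE, and has its CG dinucleotides in capitals.
Erbb2, chr11:98412234-98412469, plus strand: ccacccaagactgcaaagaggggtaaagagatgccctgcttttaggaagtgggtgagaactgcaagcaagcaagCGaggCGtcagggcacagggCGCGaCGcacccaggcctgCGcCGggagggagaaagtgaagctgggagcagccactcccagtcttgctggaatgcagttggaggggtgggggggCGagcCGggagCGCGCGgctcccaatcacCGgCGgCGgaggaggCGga
Erbb4, chr1:69108060-69108309, minus strand: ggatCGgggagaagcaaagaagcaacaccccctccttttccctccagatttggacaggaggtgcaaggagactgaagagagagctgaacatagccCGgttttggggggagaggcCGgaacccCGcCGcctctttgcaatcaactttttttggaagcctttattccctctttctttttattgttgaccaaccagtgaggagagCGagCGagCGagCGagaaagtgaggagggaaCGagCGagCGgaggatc
The printed stretch holds 16 CG dinucleotides in 236 bases for Erbb2 and 12 in 250 bases for Erbb4. Their full RefSeq windows of 300 bases held 21 and 17, against a median of 7 over 32851 windows of that length. Of these windows, 75.2% held fewer than the Erbb2 window and 68.6% fewer than the Erbb4 window. Neither window held GGGCGG, the letters of a GC box, AGGTCA, those of a retinoid receptor half-site, or TATAAA, those of a TATA box, on either strand. These were present in 35.7%, 16.3% and 13.6% of all windows, and the Egfr window held 1 GC box match and 0 of the other motifs. No match says only that these letters are not in the window.

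Erbb3 (ENSMUSG00000018166), which binds neuregulin and signals through its partners, stood at 434 and 362 in the P3 libraries, 403 and 248 in the P6 libraries, 287 and 289 in the P12 libraries and 409 and 444 in the P24 libraries. Both P12 libraries lay below those of P3 and P24, and the P6 libraries spanned most of the range. From P3 to P24 the log2 change was 0.10 with an SE of 0.23 and a 95% interval of -0.41 to 0.62 (BH-adjusted p = 0.753 by limma). From P12 to P24 it was 0.56 with an SE of 0.23 (BH-adjusted p = 0.122 by limma). The latter was called without P6 replicate 1, P6 replicate 2 or both (adjusted p = 0.00640, 0.00604 and 0.00597 by limma, the value unaltered, since these libraries enter only through the shared spread), and the adjusted p reached 0.406 in other alternatives. Erbb3 is itself a marker of Schwann cells, the sheath cells of nerves. The summed level of 11 other Schwann cell and glia markers, none at 0 in any library, lay at 495 to 554 for P3, 425 to 509 for P6, 514 to 637 for P12 and 908 to 981 for P24. Its part in the level of Erbb3 was not tested.

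Egfr (ENSMUSG00000020122) stood at 282 and 165 in the P3 libraries, 296 and 164 in the P6 libraries, 180.2 and 137 in the P12 libraries and 305 and 334 in the P24 libraries. Both P24 libraries were above all others, while the replicates of P3 and of P6 stood well apart. From P12 to P24 the log2 change was 1.02 with an SE of 0.33 (BH-adjusted p = 0.0660 by limma), which misses the threshold. Without P6 replicate 1, P6 replicate 2 or both the adjusted p was 0.00511, 0.00516 and 0.00500 by limma, with a term for Y-linked reads 0.0266 and by DESeq2 0.0232, and it reached 0.382 in other alternatives. The change from P3 to P24 was 0.57 with an SE of 0.33 and a 95% interval of -0.18 to 1.31 (BH-adjusted p = 0.210 by limma).

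Nrg1 (ENSMUSG00000062991) was the lowest of the 6 genes per length in every library, at 0.0757 to 0.230 FPKM. Its normalized counts were 86.5 and 65.5 in the P3 libraries, 97.3 and 54.9 in the P6 libraries, 39.0 and 32.8 in the P12 libraries and 74.5 and 99.6 in the P24 libraries. Both P12 libraries lay below all others; they rest on 37 and 34 reads, and the other libraries on 45 to 96. The second identifier listed as Nrg1 (ENSMUSG00000118541) was at 0 reads in all 8 libraries and failed the filter. How reads shared between both identifiers were counted is not given in the sources used here.

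From P12 to P24 Nrg1 rose 2.37-fold, with a mean of 35.9 ± 4.41 (SD, n = 2) at P12 and 87.1 ± 17.7 (SD, n = 2) at P24. The log2 change was 1.25, with an SE of 0.32 and a BH-adjusted p of 0.0309 by limma. That call was lost without P3 replicate 1 (adjusted p = 0.05004, same value), P12 replicate 1 (1.37, adjusted p = 0.0970) or 2 (1.12, adjusted p = 0.231), and P24 replicate 1 (1.45, adjusted p = 0.0973) or 2 (1.04, adjusted p = 0.193), and when libraries were scaled by size alone (1.04, adjusted p = 0.0673), all by limma. From P3 to P12, the contrast added after the values were seen, it fell by 1.05 on the log2 scale (SE 0.32, BH-adjusted p = 0.0422 by limma). That call was lost without P3 replicate 1 or 2 (-0.86 and -1.25), P12 replicate 1 or 2 (-1.18 and -0.93) and P24 replicate 1 or 2 (-1.05 each), with adjusted p between 0.0661 and 0.238 by limma, and with no filter or with the length trend removed (-1.05 and -0.64, adjusted p = 0.0639 and 0.0726). Over P3 to P24 the log2 value was 0.19 with an SE of 0.32 and a 95% interval of -0.53 to 0.91 (BH-adjusted p = 0.670 by limma).

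Markers of the cells that make neuregulin 1 moved as follows. Npr3, a marker of the endocardium, the inner lining of the heart, stood at 1637 and 1009 in the P3 libraries, 1084 and 625 in the P6 libraries, 429 and 342 in the P12 libraries and 969 and 916 in the P24 libraries, and was thus also lowest in both P12 libraries. The summed level of the 7 endocardial markers, none at 0 in any library, ranged over 6709 to 8432 (P3), 4707 to 6786 (P6 libraries), 3479 to 3652 (P12 libraries) and 5073 to 5536 (P24 libraries); it includes Gata4, which cardiomyocytes also express. Of these 7, 5 fell from P3 to P12, where 13% of all genes fell, and 3 rose from P12 to P24, where 8.2% of all genes rose. The sum of 10 endothelial markers, none at 0, was 37066 to 39283 at P3, 44542 to 55123 at P6, 47473 to 47860 at P12 and 39215 to 43052 at P24. Of these 10, 2 rose and 0 fell from P3 to P12, where 11.4% of all genes rose. From P12 to P24, 0 rose and 3 fell, where 8.14% of all genes fell. The part of these cells in the level of Nrg1 was not tested.

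Hbegf (ENSMUSG00000024486) stood at 488 and 555 in the P3 libraries, 462 and 555 in the P6 libraries, 679 and 622 in the P12 libraries and 791 and 727 in the P24 libraries. All P12 and P24 libraries lay above all P3 and P6 libraries. From P3 to P24 it rose 1.46-fold, with a log2 change of 0.54, an SE of 0.16 and a BH-adjusted p of 0.0241 by limma. The call was lost without P3 replicate 1 or 2 (0.45 and 0.63, adjusted p = 0.157 and 0.0589) and without P24 replicate 1 or 2 (0.48 and 0.60, adjusted p = 0.156 and 0.0851 by limma). Scaled by library size alone, where the median gene shifted by -0.36, the value was 0.19 (BH-adjusted p = 0.279 by limma).

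In all, 3 of the 6 genes changed from P3 to P24, 2 falling and 1 rising, where 36.9% of all genes tested were called, 18.2% falling and 18.7% rising. From P3 to P12, the contrast added after the values were seen, 3 of 6 fell, where 13% of all genes fell, 11.4% rose and 24.4% were called. Without both P6 libraries 5 of 6 were called from P3 to P12, where 7006 of 13961 genes were called. The count, like that of all genes, was lower without any single library of P3, P12 or P24. From P12 to P24, 1 of 6 rose, where 8.2% of all genes rose, 8.14% fell and 16.3% were called. Without both P6 libraries 3 of 6 were called, where 6028 of 13961 genes were called. Without P3 replicate 1 or any P12 or P24 replicate fewer members and fewer of all genes were called. The median log2 change of the 6 genes from P3 to P24 was 0.15, against -0.02 over all genes tested.

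From P3 to P6 limma called 0 of the 6. It called 0.84% of all genes (0.655% rising, 0.185% falling). By edgeR 0 of the 6 and 100 of 14055 genes were called, and by DESeq2 0 of the 6 and 515 of 13510. From P6 to P12 limma called 0 of the 6. Its share of all genes was 2.26% (0.996% rising, 1.26% falling). By edgeR 0 of the 6 and 336 of 14055 genes were called, and by DESeq2 1 (Erbb2) and 874 of 14055. Over the 4 stages jointly, limma's F test called Erbb2, Erbb4, Nrg1 and Hbegf (BH-adjusted p = 0.00320, 0.00959, 0.0438 and 0.0440), where 34.9% of all genes were called. That count, like the number over all genes, was lower without any single library of P3, P12 or P24 and higher without either P6 replicate.

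**Figure D2:**
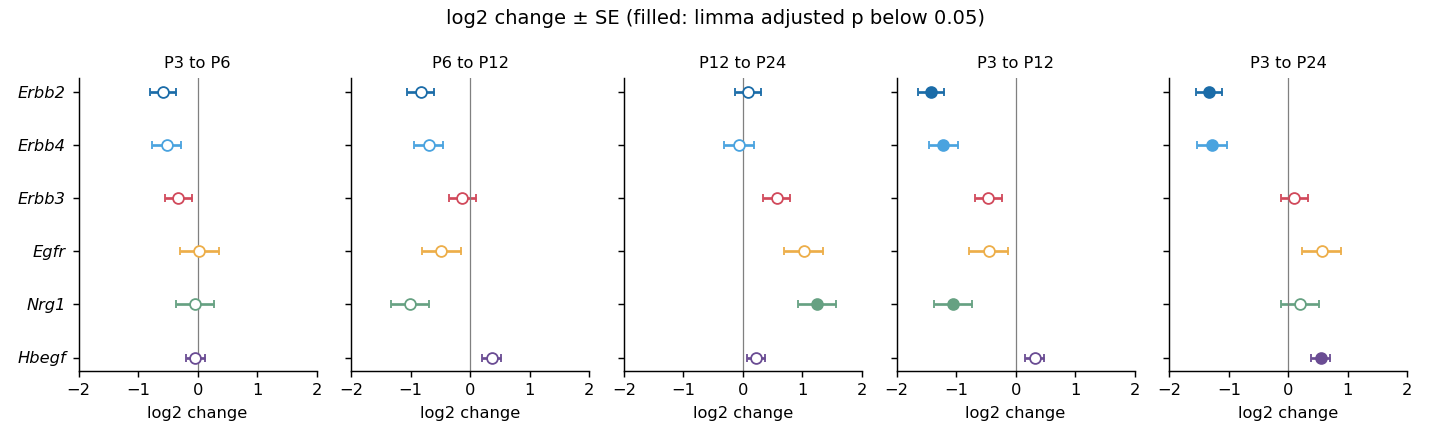
log2 change (with SE as error bars) of each gene in 5 contrasts, filled where limma's BH-adjusted p was below 0.05. The contrast from P3 to P12 was added after the values were seen. Erbb2 and Erbb4 are filled from P3 to P12 and from P3 to P24 with values between -1.42 and -1.22, Nrg1 from P3 to P12 (-1.05) and from P12 to P24 (1.25), and Hbegf from P3 to P24 (0.54).

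The P6 libraries bear on every statement about that stage. Of the 6 genes, 5 were higher in P6 replicate 1, by log2 differences of 0.70 (Erbb3), 0.74 (Erbb2), 0.75 (Erbb4), 0.81 (Nrg1) and 0.85 (Egfr), whereas Hbegf differed by -0.26. These libraries differed with gene length: the median difference ran from -0.59 in the shortest decile of genes to 0.48 in the longest, which holds Nrg1, Erbb4 and Egfr. Erbb2 and Hbegf stood in decile 6, with a median of 0.069, and Erbb3 in decile 7, with one of 0.15. From P3 to P6 the log2 change without P6 replicate 1 was -0.95 for Erbb2, -0.68 for Erbb3 and -0.90 for Erbb4. Without P6 replicate 2 it was -0.21, 0.025 and -0.14. From P6 to P12 these 3 genes changed by -0.47, 0.22 and -0.32 without P6 replicate 1 and by -1.21, -0.49 and -1.07 without P6 replicate 2. For Nrg1, Egfr and Hbegf the values were -0.61, -0.058 and 0.23 without P6 replicate 1 and -1.42, -0.91 and 0.49 without P6 replicate 2. In both contrasts the number of members called, like that of all genes, depended on which P6 library was left out.

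**Figure D3:**
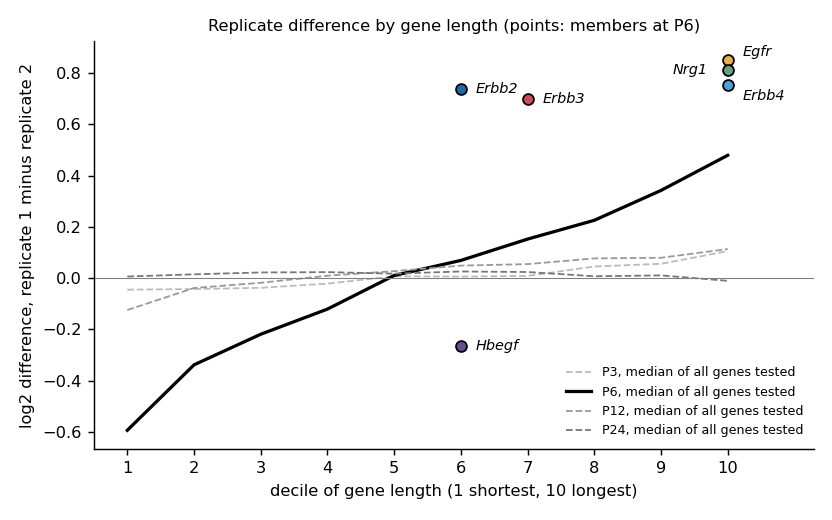
Median log2 difference between replicates 1 and 2 over all genes tested, by decile of gene length (1 shortest), with a line per stage and a point for each of the 6 genes at P6. The P6 line runs from -0.59 to 0.48 and the other lines stay between -0.12 and 0.11; 5 of the 6 points lie above the P6 line at 0.70 to 0.85, with Hbegf below it at -0.26.

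Levels of different genes were set side by side per length, in FPKM. At P3 Erbb2 was the most abundant of the 6 at 6.95 ± 0.0605 (SD, n = 2), followed by Hbegf at 3.85 ± 0.345, Erbb3 at 2.36 ± 0.298, Erbb4 at 1.98 ± 0.397, Egfr at 0.703 ± 0.260 and Nrg1 at 0.176 ± 0.0343. The P3 libraries of Erbb3 and Erbb4 overlapped. At P24 Hbegf came first at 5.60 ± 0.336 (SD, n = 2), then Erbb2 at 2.75 ± 0.0321, Erbb3 at 2.53 ± 0.146, Egfr at 1.01 ± 0.0661, Erbb4 at 0.803 ± 0.0260 and Nrg1 at 0.201 ± 0.0410. Hbegf was below Erbb2 in both P3 libraries and above it in all of P12 and P24, and Egfr was above Erbb4 in the P24 libraries alone. At P24 the libraries of no neighbouring pair in this order overlapped.

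Of the summed FPKM of the 4 receptor genes, Erbb2 held 55.0% and 61.3% in the P3 libraries, 54.0% and 54.2% in those of P6, 45.9% and 46.0% in those of P12 and 39.7% and 37.9% in those of P24. The share of Erbb3 was 20.2% and 19.1% in the P3 pair and 34.8% and 36.6% in the P24 pair. Egfr held 6.98% and 4.61% at first and 13.8% and 14.6% in the P24 libraries, and Erbb4 17.8% and 15.0% at first and 11.8% and 10.9% in the P24 libraries. The share of Erbb2 in every P12 and P24 library was thus below that in every P3 and P6 library. The sum itself had a mean of 11.99 ± 1.02 FPKM (SD, n = 2) for P3, 8.85 ± 3.16 for P6, 5.64 ± 0.0933 for P12 and 7.09 ± 0.154 for P24.

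The ratio of Erbb3 to Erbb2 was 0.368 and 0.311 in the P3 libraries, 0.399 and 0.410 in those of P6, 0.649 and 0.668 in those of P12 and 0.875 and 0.965 in those of P24. No stage overlapped the next, and the P6 libraries, far apart in each gene alone, nearly coincided. An exact permutation test of the F statistic over the stages gave 0.00952, the smallest p this design allows, or 0.0190 with BH adjustment over the 4 ratios tested. Without either P6 library the adjusted p of that exact test was 0.0762, and without any other library it was 0.0190 to 0.0381.

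Egfr to Erbb2 stood at 0.127 and 0.0752 in the P3 libraries, 0.156 and 0.144 in those of P6, 0.217 and 0.168 in those of P12 and 0.346 and 0.386 in those of P24, with the same exact permutation p and adjusted p. Again no stage overlapped the next. Without P3 replicate 2, P6 replicate 1, P6 replicate 2, P12 replicate 1, P12 replicate 2 or P24 replicate 2 the adjusted p of the exact test was 0.0571, 0.0952, 0.0889, 0.0952, 0.0571 and 0.0762. Erbb4 to Erbb2 had mean ratios of 0.284, 0.294, 0.324 and 0.292 from P3 to P24 (exact permutation test, adjusted p = 0.629); without P3 replicate 1, where the ratio was 0.323 against 0.246 in replicate 2, the adjusted p was 0.0381. For the ligands, Nrg1 to Hbegf had a mean ratio of 0.0462 ± 0.0131 (SD, n = 2) for P3, 0.0485 ± 0.0247 for P6, 0.0172 ± 0.00107 for P12 and 0.0362 ± 0.00950 for P24 (exact permutation test, adjusted p = 0.178). Its P12 libraries lay below the rest.

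**Figure D4:**
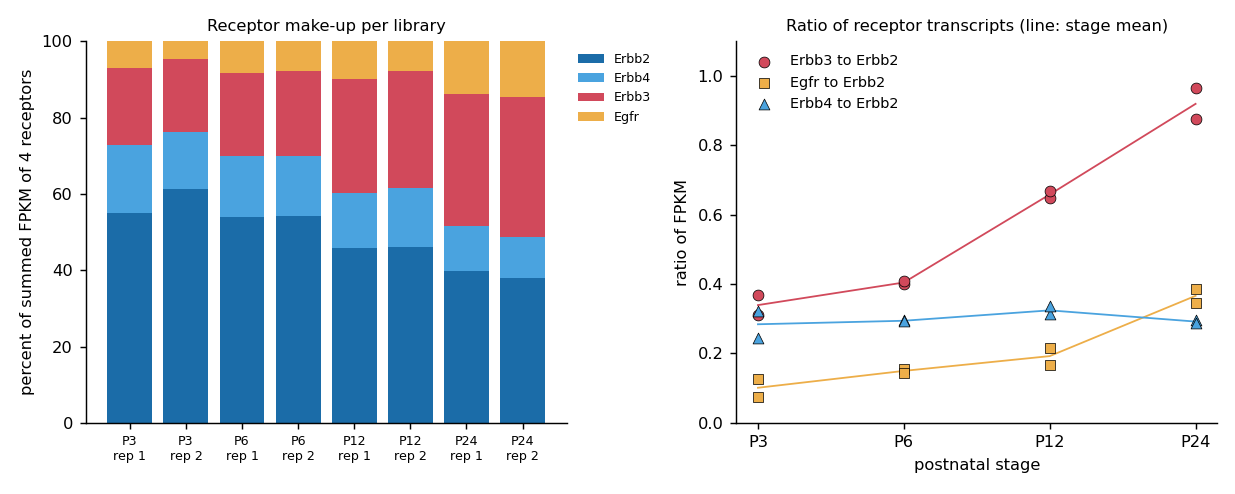
Percent of the summed FPKM of the 4 receptor genes held by each in each library (bars from 0), and ratios of FPKM to Erbb2 by stage with 1 point per library. The share of Erbb2 ends at 37.9% to 39.7%, the ratio of Erbb3 to Erbb2 reaches 0.875 and 0.965, and that of Erbb4 to Erbb2 lies between 0.246 and 0.336.

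Genes whose course was most like that of each member were sought by Pearson's r of log2 values over the 8 libraries. Candidates had a mean normalized count of at least 100 and a symbol that was not a Gm, Rik or numbered clone name. Erbb2 was followed most closely by Cracd (r = 0.997), Fasn (0.994) and Sh3bp4 (0.994), and Erbb4 by Sec61a1 (0.997), Morc4 (0.996) and Ptprs (0.994). Erbb4 itself ranked 64 for Erbb2 among 11074 genes (r = 0.979). Nearest to Erbb3 were Casc3 (0.988), Gga1 (0.988) and Sik3 (0.985), and nearest to Egfr were Dtx4 (0.982), Cflar (0.980) and Sec22c (0.979). Nrg1 was closest to Ubxn7 (0.980), Ube3c (0.977) and Prox1 (0.975), and Hbegf to Hspa9 (0.990), Mapkapk3 (0.985) and Prodh (0.981). These values share the stage means and the P6 length difference, and 227 to 712 genes exceeded an r of 0.9 for each member.

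Other genes of the pathway were taken from 5 lists. Of 9 further ErbB ligands, 5 passed the filter, and from P3 to P24 1 rose and 1 fell, where 18.7% of all genes rose and 18.2% fell. Tgfa, a ligand of EGFR, stood at 142 and 115 in the P3 pair and 20.3 and 38.1 in the P24 pair and fell by 2.16 on the log2 scale (BH-adjusted p = 0.00555 by limma), a call lost without P24 replicate 1 (-1.72, adjusted p = 0.0533). Nrg4, a ligand of ErbB4, stood at 19.0 and 27.3 in the P3 pair and 52.8 and 44.3 in the P24 pair and rose by 1.05 (BH-adjusted p = 0.0217 by limma). That call was lost without P3 replicate 1 (0.80), P24 replicate 1 (0.93) or P24 replicate 2 (1.18), with library size alone (0.71) and by DESeq2 (1.07), with adjusted p between 0.0536 and 0.134. Nrg2, a ligand of ErbB3 and ErbB4, rose from P12 to P24 by 2.17 (BH-adjusted p = 0.0182 by limma). It stood at 8.43 and 4.82 in the P12 libraries, below the filter minimum of 10, and at 35.2 and 29.5 in those of P24. It was not called from P3 to P24, and how its P12 to P24 call fared in the alternative fits is not given here. Areg, Ereg and Epgn were too low for the filter, and Nrg3 was at 0 in every library.

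Of 10 proteases and carriers that release ligands, 1 rose and 1 fell from P3 to P24, 2 of 10 where 36.9% of all genes were called. Adam12, a protease that can shed HB-EGF, stood at 315 and 309 in the P3 pair and 16.3 and 22.1 in the P24 pair and fell by 3.97 on the log2 scale (BH-adjusted p = 1.54e-05 by limma). Nrd1, nardilysin, an enhancer of ectodomain shedding, had a mean of 3708 ± 54.8 (SD, n = 2) at P3 and 7382 ± 202 (SD, n = 2) at P24 and rose by 0.99 (BH-adjusted p = 0.000542 by limma). Both calls held in all 19 alternative fits. Without both P6 libraries 2 of the list rose and 4 fell, where 7811 of 13961 genes were called. Adam17, the main sheddase of these ligands, averaged 1425 at P3 and 1759 at P24 (log2 value 0.30, BH-adjusted p = 0.163 by limma).

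Among 13 genes that restrain or turn over the receptors, 2 rose and 0 fell, 2 of 13 where 36.9% of all genes were called. Errfi1, an inhibitor that binds the kinases of the family, had a mean of 460 ± 41.5 (SD, n = 2) at P3 and 841 ± 48.4 (SD, n = 2) at P24 and rose by 0.87 (BH-adjusted p = 0.00293 by limma), a call kept in all 19 alternative fits. Lrig1, which promotes receptor breakdown, rose by 0.43 (BH-adjusted p = 0.0366 by limma). That call was lost in each of the 6 fits without a library of P3, P12 or P24 (0.37 to 0.50). It was also lost with a Y-linked term (0.38) and with library size alone (0.083). Under library size alone 1 of the 13 rose and 3 fell, where 6511 of 13961 genes were called, 1505 of them rising. Without both P6 libraries 3 of the 13 rose and 2 fell, where 7811 of 13961 genes were called.

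Of 27 adaptors and kinases below the receptors, 6 rose and 2 fell, 8 of 27 where 36.9% of all genes were called. With library size alone 0 rose and 8 fell, where 6511 of 13961 genes were called, 1505 of them rising. After quantile normalization 5 rose and 6 fell, where 5114 of 14055 genes were called, 2697 of them rising. No direction is therefore given for the list, whose median was 0.056. Without both P6 libraries 10 rose and 6 fell, where 7811 of 13961 genes were called. With any single library of P3 or P24 left out, fewer of the list and fewer of all genes were called. Pik3r1, a regulatory subunit of PI3 kinase, rose by 0.80 (BH-adjusted p = 0.0390 by limma), lost in each of the 6 fits without a library of P3, P12 or P24 (0.63 to 0.97), with library size alone (0.45, adjusted p = 0.235), after quantile normalization (0.71, adjusted p = 0.0548) and with no filter (adjusted p = 0.0502). Stat5a, a transcription factor that receptor signals activate, rose by 0.72 (BH-adjusted p = 0.0116 by limma), lost without P3 replicate 1 or 2 or P24 replicate 1 (0.74, 0.70 and 0.61) and with library size alone (0.37). Src, a tyrosine kinase, stood at 440 and 354 in the P3 pair and 176 and 162 in the P24 pair and fell by 1.22 (BH-adjusted p = 0.00782 by limma), lost without P3 replicate 1 or P24 replicate 2 (-1.06 and -1.16). Nras, a small GTPase of the ERK route, fell by 0.54 (BH-adjusted p = 0.0413 by limma), lost in each of the 6 fits without a library of P3, P12 or P24 (-0.63 to -0.45).

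Among 18 tested genes that respond to the ERK kinases or feed back on them, 2 rose and 4 fell from P3 to P24, 6 of 18 where 36.9% of all genes were called. With library size alone 1 rose and 6 fell, where 6511 of 13961 genes were called, 1505 of them rising. The list's median was then -0.45 in place of -0.10, and that of all genes tested -0.36 in place of -0.02. Etv4, a transcription factor downstream of receptor kinases, stood at 91.8 and 103 in the P3 pair and 10.8 and 23.4 in the P24 pair and fell by 2.53 (BH-adjusted p = 0.00191 by limma). Myc, a growth regulator, had a mean of 200.5 ± 13.4 (SD, n = 2) at P3 and 63.0 ± 4.81 (SD, n = 2) at P24 and fell by 1.65 (BH-adjusted p = 0.00136 by limma). Both calls held in all 19 alternative fits. The immediate early genes Fos and Egr1 rose by 1.85 and 1.36 (BH-adjusted p = 0.0193 and 0.02997 by limma), but their P24 libraries differed, with 218 and 73.8 for Fos and 1092 and 455 for Egr1. Neither was called without P24 replicate 1 (1.07 and 0.73), P3 replicate 1 (2.02 and 1.60) or P3 replicate 2 (1.68 and 1.11). Egr1 was also not called with library size alone (1.01, adjusted p = 0.0861 by limma). Without both P6 libraries 5 of the list rose and 5 fell, where 7811 of 13961 genes were called. The feedback phosphatase Dusp6 averaged 702 at P3 and 764 at P24 (log2 value 0.12, BH-adjusted p = 0.594 by limma).

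**Figure D5:**
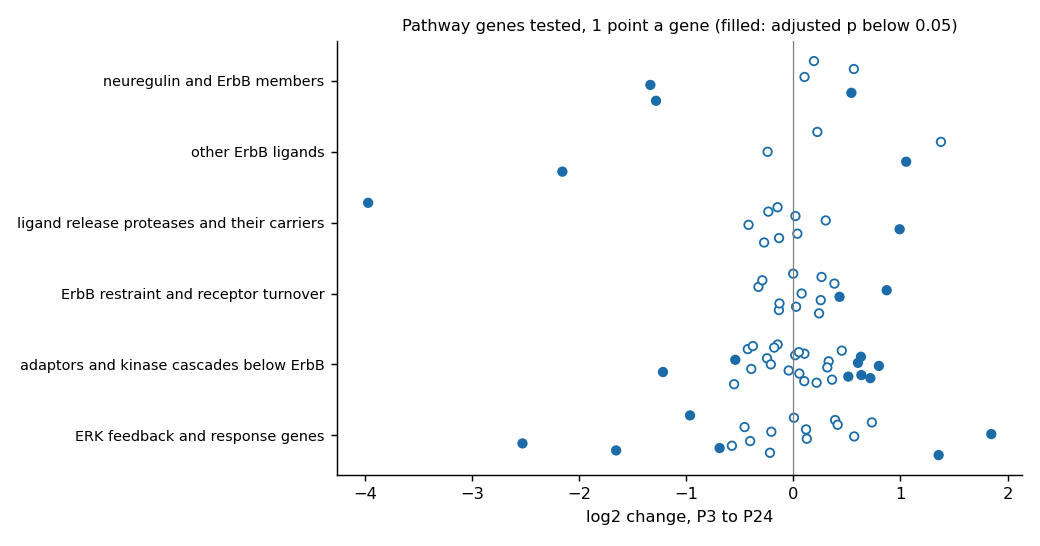
log2 change from P3 to P24 of each gene tested, 1 point per gene, for the 6 members and the 5 pathway lists, filled where limma's BH-adjusted p was below 0.05. Adam12 lies farthest to the negative side at -3.97 and Fos farthest to the positive side at 1.85.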

How the data were processed

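The authors deposited 1 table with a normalized count (unit signal) and an FPKM value per gene and library, per the file headers. FPKM was used to compare genes and to derive relative gene length, as mean normalized count over mean FPKM. The submitters' processing notes list STAR 2.7.3a, HTSeq 0.11.2, Trim Galore 0.6.4 and DESeq2 1.32.0, with no role given, and the assembly GRCm39. The annotation release and the strand setting are not given in the sources used here, which leaves overlapping genes uncertain. The deposited signal gave whole reads for 100% of values within 0.001.

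Because the values are normalized, limma 3.58.1 (R 4.3.3) was run on log2(normalized count + 1) with a trended eBayes, stage as factor and 8 libraries in 1 fit. Genes with at least 10 in at least 2 libraries were kept, 14055 in all, with BH adjustment over them and a threshold of 0.05. The pseudocount makes fold changes of low genes too small. Alternatives were edgeR 4.0.16 and DESeq2 1.42.0 on the recovered reads, other scalings and filters, a length correction, a Y-linked term, a replicate block and leaving out each library. Receptor ratios used an exact permutation test of F over stages. The fit was also run on simulated independent counts with known changes. These held neither the P6 length difference nor the wider P6 spread, so the run says nothing about those features. Members, lists and the rule for named genes (all members, the 2 largest rises and falls among changed genes of each list from P3 to P24, and the 3 most alike genes) were chosen with earlier results of these data known; Npr3, Adam17, Dusp6, Nrg2 and the low ligands were named after their values were seen.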

Additional observations from a re-analysis of the deposited data

How the results depend on the processing

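From P3 to P24 Erbb2 and Erbb4 kept their fall in all 19 alternatives. With 1 library left out the number of members called ranged from 2 to 3 from P3 to P24, 1 to 5 from P3 to P12, 0 to 3 from P3 to P6, 0 to 6 from P6 to P12, 0 to 3 from P12 to P24 and 1 to 6 over the stages. For every comparison but P3 to P24, the highest of these counts came without a P6 library, where more of all genes were called too. Counts below those with all libraries came where fewer of all genes were called. These ranges therefore moved with the number over all genes. From P12 to P24, 0 members were called with library size alone, where 2606 of 13961 genes were called. DESeq2 called 2 members and 2768 of 13782 genes, and a Y-linked term gave 2 and 2828 of 14055. Without both P6 libraries 3 members and 6028 of 13961 genes were called. From P3 to P12 without both P6 libraries 5 members and 7006 of 13961 genes were called. From P6 to P12 DESeq2 called 1 member and 874 of 14055 genes. Over the stages 2 members and 5711 of 13961 genes were called with library size alone, and 2 and 4551 of 17649 with no filter. The cause was not tested. With the replicate block 2 members were called from P12 to P24 (Egfr added, adjusted p = 0.0203 by limma), where 2944 of 14055 genes were called. Over the stages it called 5 members and 5887 of 14055 genes, and the other member counts stood. Same-numbered libraries deviated together only in part (correlations from -0.14 to 0.32), so the numbers were not taken as pairs.

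For the ratios, the adjusted p of the exact permutation test without 1 library was 0.0381 to 0.886 for Erbb4 to Erbb2, 0.0190 to 0.0952 for Egfr to Erbb2, 0.0190 to 0.0762 for Erbb3 to Erbb2 and 0.0889 to 0.533 for Nrg1 to Hbegf.

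Signs changed only for log2 values that were not called with all libraries and the chosen settings. From P3 to P6 Nrg1 became 0.018 with edgeR, 0.013 with DESeq2 and 0.10 with the length trend removed, and ran from -0.45 to 0.37 with 1 library left out; Erbb3 ran from -0.68 to 0.025, Egfr from -0.40 to 0.46 and Hbegf from -0.17 to 0.093. Egfr became -0.061 with library size alone and -0.19 with the Y-linked term. From P6 to P12 Erbb3 ran from -0.49 to 0.22, and from P12 to P24 Erbb2 became -0.12 with library size alone. From P3 to P24 Nrg1 and Erbb3 became -0.15 and -0.24 with library size alone and -0.029 and -0.016 with the Y-linked term, and with 1 library left out ran from -0.015 to 0.40 and from -0.025 to 0.23. Depth limits Nrg1 most, with 34 to 96 reads per library.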
